A study of Homo sapiens with 6 samples.

Results

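Histone methyltransferases and demethylases were examined in MDA-MB-231 cells, an established human line of triple negative breast cancer, treated for 48 h with siRNA. One group received a control siRNA (siControl) and the other an siRNA directed at USP32 (siUSP32), which encodes a ubiquitin-specific protease. The genes were chosen by symbol alone: those named KDM or KMT with a number, those beginning with SETD, and NSD1 to NSD3, EZH1, EZH2, EHMT1, EHMT2, ASH1L, DOT1L, SUV39H1 and SUV39H2. This gave 50 of the 17646 genes listed. Each group held 3 libraries of 1 cell line, and no label states whether these were independent cultures. The p-values therefore rest on the scatter of libraries that may be technical repeats.

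Methyl groups on lysines of histones H3 and H4 mark chromatin states. Methylation of H3K4, H3K36 and H3K79 goes with active promoters, enhancers and transcribed gene bodies, while methylation of H3K9 and H3K27 goes with silenced chromatin and that of H4K20 with chromosome compaction and DNA repair. The writers carry a SET domain (DOT1L is the exception) and take the methyl group from S-adenosylmethionine. The erasers are either flavin-dependent (KDM1A and KDM1B) or carry an iron- and 2-oxoglutarate-dependent JmjC domain. Most are large nuclear proteins with long transcripts.

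USP32 checked the labels. It was at 7.5, 7.48 and 8.32 FPKM (sequenced fragments divided by transcript length and by the library's mapped total) in siControl and 2.0, 1.88 and 2.01 in siUSP32, a 3.96-fold fall (log2 difference -1.56 ± 0.07 SE, limma adjusted p = 8.57e-08, exact permutation p = 0.1, the smallest that 3 against 3 libraries allow). The summed FPKM of all listed genes lay between 686376 and 694831 in siControl and between 855573 and 948641 in siUSP32, and siUSP32 replicate 2 had the highest sum. YAP1, the gene of the protein that the study links to USP32, went from 57.8 ± 1.54 to 31.6 ± 4.74 FPKM (SD, n = 3, limma adjusted p = 3.69e-05). All 8 markers of the line had a mean of at least 1 FPKM, but they shifted between the groups in both directions. VIM was at 1077 to 1098 FPKM in siControl and 1628 to 1715 in siUSP32, CD44 at 423 to 426 and 131 to 138, and AXL at 63.8 to 65.4 and 16.2 to 17.2. ESR1 stayed below 0.7. The luminal cytokeratins KRT8, KRT18 and KRT19 were high, at 869.5 FPKM or more in every library, while CDH1 lay at 0.5 or below. Of the 4 listed leukocyte markers PTPRC was at 0 in siControl and at most 0.02 in siUSP32, while CD14 lay between 6.71 and 8.12 in siControl and between 4.58 and 5.49 in siUSP32. No endothelial marker had a mean of 1 FPKM, and of the erythroid ones HBA1 lay between 23.8 and 32.4 over all libraries. The part of these shifts in the results was not tested.

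Of the 50 genes, 47 had a mean of at least 1 FPKM over the 6 libraries and were tested. The 3 others were SETDB2-PHF11, a readthrough of SETDB2, KDM4E and KDM5D. By limma on log2(FPKM + 1) with Benjamini-Hochberg adjustment over 12003 genes, 26 of the 47 fell (55.3%), 7 rose (14.9%) and 14 passed in neither direction. Over all genes tested the shares were 41.3% lower and 33.3% higher, and 74.6% in either direction. The median log2 difference was -0.21 over the members and -0.06 over all genes. Groups did not overlap for 37 of the 47 members (78.7%), against 77.8% of all genes, a share near that of the whole table. Falls of at least 0.5 on the log2 scale were called for 14 members (29.8%, against 24.7% of all genes). Rises of that size were called for 3 of the 47, SETD4, SETD7 and SUV39H2, against 15.6% of all genes.

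**Figure D1:**
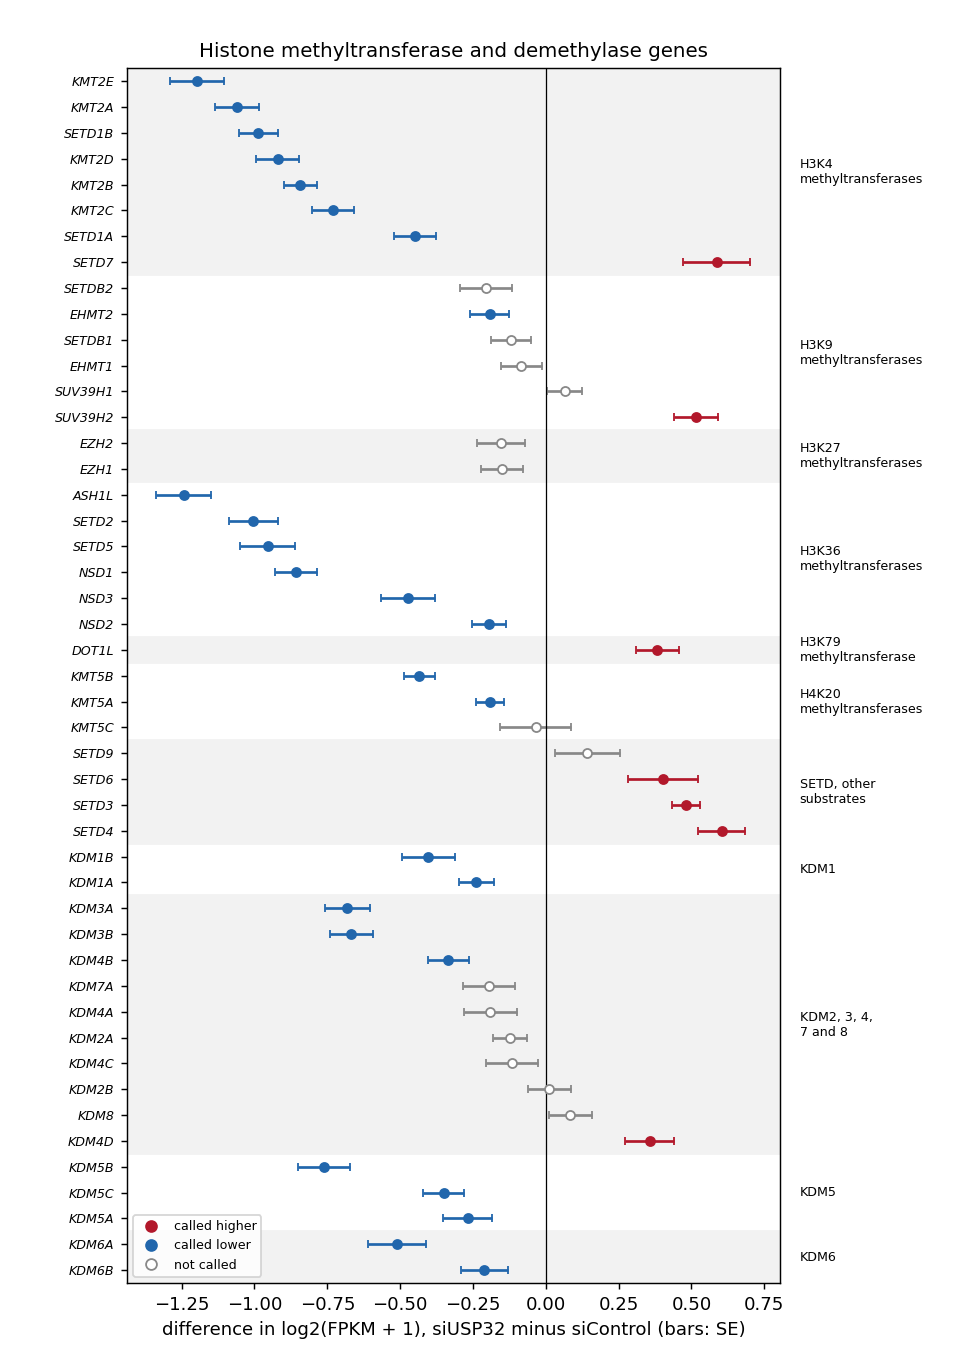
Difference in log2(FPKM + 1) between siUSP32 and siControl (x axis, bars give the SE) for the 47 tested genes, grouped by the mark they write or erase. Filled points passed the test. The methyltransferases of H3K4 and H3K36 lie on the lower side except SETD7, and the H3K9 and H3K27 groups lie near 0 except SUV39H2. The differences are not corrected for transcript length.

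The enzymes were grouped by the mark they act on. Over all genes tested, 41.3% fell and 33.3% rose. Among writers of H3K4, 7 of 8 fell and 1 rose (median -0.88). Among writers of H3K36, 6 of 6 fell (median -0.91). Of the 6 H3K9 writers 1 fell, 1 rose and 4 moved in neither direction by the test (median -0.10), and neither H3K27 writer passed. Of the 17 erasers tested 10 fell, 1 rose and 6 did not pass (median -0.24, range -0.76 to 0.36), while the 30 writers, SETD genes with other substrates included, ranged from -1.24 to 0.60. The H3K4 and H3K36 writers all had transcripts of 5969 bases or more. Among all genes of 5264 bases or more, 72.2% were lower (median -0.46). With the length correction the medians were -0.32 for H3K4, -0.39 for H3K36 and 0.17 for H3K9 writers. The part of length in these contrasts was not tested. The counts describe the groups, and no test compared one group with another.

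The calls of small differences depended on how the libraries were scaled, so each was read under 5 scalings: FPKM as deposited, TPM (each library set to the same sum), median-ratio scaling, quantile normalization and a correction for transcript length. Relative to FPKM as deposited, where the median over all genes was -0.06, the median over all genes was -0.39 with TPM and 0.10 after quantile normalization. With TPM 38 members were lower and 1 higher, against 62.1% and 14.3% of all genes (76.4% in either direction). After quantile normalization 17 were lower and 14 higher, against 30.3% and 43.5% of all genes (73.7% in either direction). With median-ratio scaling 22 were lower and 7 higher, against 37.7% of all genes in each direction and 75.4% in either. With the length correction 15 were lower and 15 higher, against 35.1% of all genes in each direction and 70.2% in either. In all 5 scalings 13 members were called lower: ASH1L, KMT2E, KMT2A, SETD2, SETD1B, SETD5, KMT2D, NSD1, KMT2B, KDM5B, KDM3A, KDM3B and KDM1A. Only SETD4 was called higher in all 5, and 5 more (SETD7, SUV39H2, SETD3, DOT1L and KDM4D) in all but TPM. The calls of 11 members went both ways: KDM5A, SETDB2, KDM7A, NSD2, EZH1, KDM2A, SETDB1, KDM4C, EHMT1, KDM2B and SUV39H1.

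**Figure D2:**
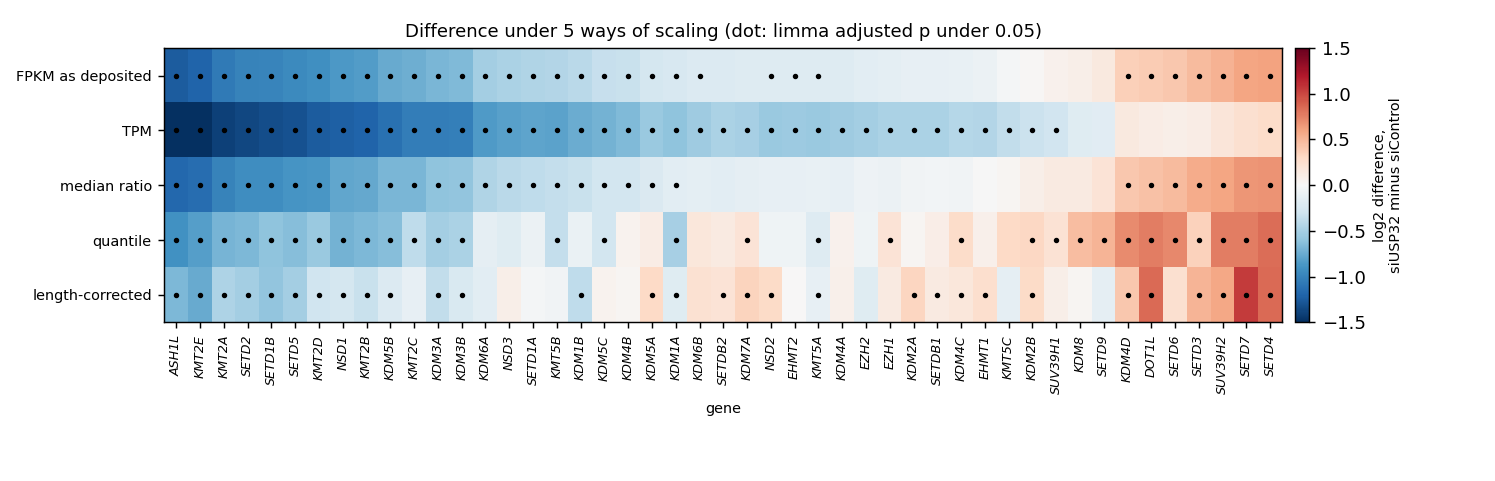
Log2 difference between siUSP32 and siControl (colour) of the 47 tested genes (x axis, ordered by the difference in deposited FPKM) under 5 scalings (rows). A dot marks a limma adjusted p under 0.05. The 10 genes with the largest falls and the gene with the largest rise, SETD4, carry a dot in every row, while genes in the middle change colour between rows.

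The H3K4 writers of the MLL and SET1 families form complexes around WDR5, RBBP5, ASH2L and DPY30. KMT2A, the MLL1 gene, is broken in acute leukaemias. It was at 4.13, 4.48 and 4.54 FPKM in siControl and 1.61, 1.42 and 1.72 in siUSP32. Every siUSP32 library lay below every siControl library, a 2.77-fold fall (log2 difference -1.06 ± 0.07 SE, limma adjusted p = 1.81e-06), which was -0.46 with the length correction. KMT2E, whose protein binds H3K4me3 and has little known enzyme activity, was at 6.58, 6.38 and 6.40 FPKM in siControl and 2.19, 1.90 and 2.71 in siUSP32. Its 2.85-fold fall was the largest fold among the members (log2 difference -1.20 ± 0.09 SE, limma adjusted p = 3.50e-06, length-corrected -0.75). KMT2D, the MLL4 gene, which encodes the main enhancer H3K4 monomethyltransferase together with KMT2C, was at 2.79, 2.89 and 3.15 FPKM in siControl and 1.21, 1.02 and 1.02 in siUSP32. This 2.72-fold fall (log2 difference -0.92 ± 0.07 SE, limma adjusted p = 4.68e-06) was -0.30 with the length correction. SETD1B, a catalytic subunit of the SET1 complex that places H3K4me3 at promoters, was at 4.35, 4.35 and 4.48 FPKM in siControl and 1.77, 1.60 and 1.80 in siUSP32. It fell 2.55-fold with almost no spread in the controls (log2 difference -0.99 ± 0.07 SE, limma adjusted p = 1.40e-06, length-corrected -0.59).

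The remaining MLL-family genes fell by less. KMT2B, the MLL2 gene, had a mean of 19.0 ± 0.347 FPKM in siControl and 10.1 ± 0.481 in siUSP32 (SD, n = 3, as for the means that follow). Its 1.87-fold fall kept its call in every scaling, and the length-corrected log2 difference was -0.33. KMT2C went from 2.42 ± 0.0681 to 1.06 ± 0.113 FPKM, a 2.28-fold fall that lost its call with the length correction (log2 difference -0.73, then -0.12), and parts of this gene have near-identical copies elsewhere in the genome, so its level is uncertain. SETD1A, the partner gene of SETD1B, went from 5.94 ± 0.129 to 4.09 ± 0.335 FPKM, and its difference of -0.45 missed the threshold under quantile normalization (-0.09) and under the length correction (-0.03). SETD7, which monomethylates H3K4 and many other proteins and is built unlike the MLL enzymes, rose. Its FPKM was 10.54, 11.42 and 10.77 in siControl and 18.92, 13.51 and 18.75 in siUSP32, with the lowest siUSP32 value in replicate 2. The rise was 1.56-fold (log2 difference 0.59 ± 0.12 SE, limma adjusted p = 0.00140), 1.05 with the length correction and 0.24 with TPM, where it did not pass.

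**Figure D3:**
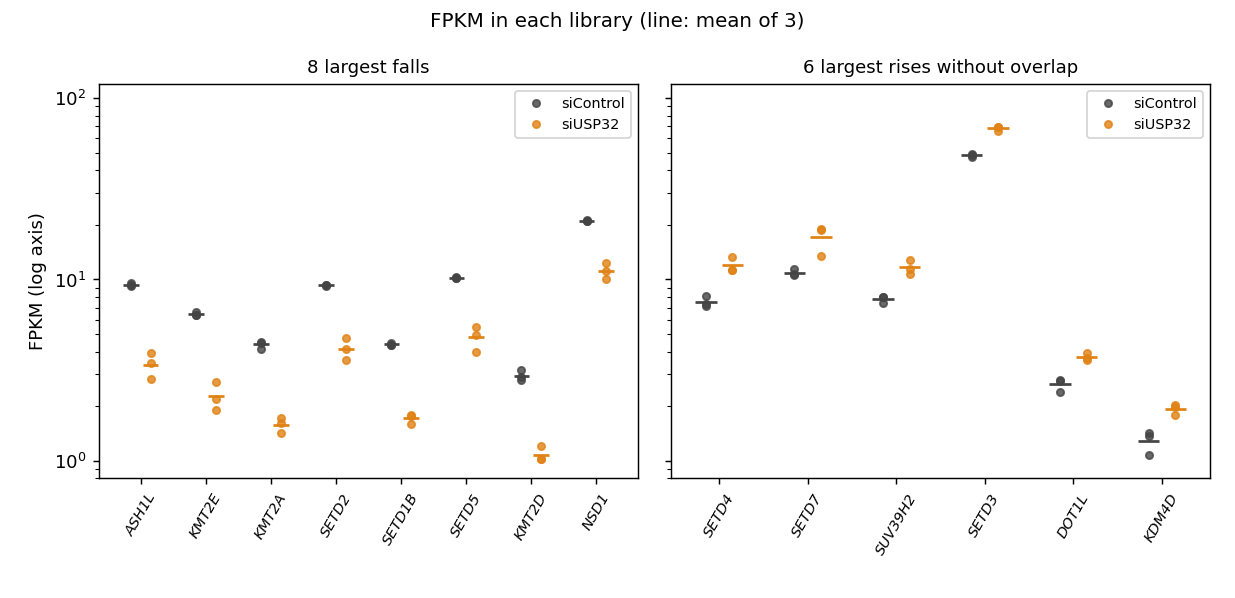
FPKM (log axis) in each siControl and siUSP32 library for the 8 members with the largest falls (left) and the 6 called rises whose groups did not overlap (right), with a line at each mean. The fallen genes lie at 1.02 to 12.3 FPKM in siUSP32, each below its own siControl libraries.

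The 6 H3K36 writers fell in deposited FPKM, and 4 were also lower with quantile normalization and with the length correction. ASH1L, a dimethyltransferase that keeps developmental genes active, was at 9.20, 9.29 and 9.54 FPKM in siControl and 3.46, 2.81 and 3.91 in siUSP32. This 2.75-fold fall had the largest log2 difference of the members (-1.24 ± 0.09 SE, limma adjusted p = 2.82e-06, length-corrected -0.68). SETD2, the H3K36 trimethylating enzyme that travels with elongating RNA polymerase II, was at 9.34, 9.21 and 9.36 FPKM in siControl and 4.14, 3.60 and 4.73 in siUSP32, a 2.24-fold fall (log2 difference -1.0 ± 0.09 SE, limma adjusted p = 6.16e-06, length-corrected -0.51). SETD5, whose own methyltransferase activity is disputed, was at 10.31, 10.18 and 10.13 FPKM in siControl and 4.97, 4.0 and 5.49 in siUSP32, a 2.12-fold fall (log2 difference -0.95 ± 0.09 SE, limma adjusted p = 1.70e-05, length-corrected -0.51). In these 3 genes siUSP32 replicate 2 was the lowest library and replicate 3 the highest of its group. NSD1, a dimethyltransferase mutated in Sotos syndrome, was at 20.94, 21.15 and 20.99 FPKM in siControl and 11.14, 10.09 and 12.33 in siUSP32, a 1.88-fold fall (log2 difference -0.86 ± 0.07 SE, limma adjusted p = 6.13e-06, length-corrected -0.27). Its relatives fell less in deposited FPKM, NSD3 from 8.66 ± 0.587 to 5.98 ± 0.770 FPKM and NSD2 from 17.7 ± 0.874 to 15.3 ± 0.143 FPKM. Neither passed after quantile normalization (log2 differences -0.18 and -0.07). With the length correction NSD3 did not pass (0.09) and NSD2 was called higher (0.29). The NSD2 fall in deposited FPKM also lost its call without siControl replicate 3 (limma adjusted p = 0.0682).

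Writers of H3K9 included 1 rise and 1 fall in deposited FPKM, but 5 of the 6 were called lower with TPM and 4 of the 6 higher with the length correction. SUV39H2, which trimethylates H3K9 in constitutive heterochromatin, was at 7.42, 8.03 and 8.01 FPKM in siControl and 11.36, 10.73 and 12.83 in siUSP32. All siUSP32 libraries were higher, by 1.49-fold on average (log2 difference 0.52 ± 0.08 SE, limma adjusted p = 2.20e-04, 0.18 and not past the threshold with TPM). Its paralog SUV39H1 was at 14.6 ± 0.745 and 15.3 ± 0.393 FPKM, with overlapping groups (limma adjusted p = 0.343). EHMT2, the G9a gene, went from 18.1 ± 0.847 to 15.7 ± 1.15 FPKM, a fall with no call under median-ratio, quantile or length scaling (log2 differences -0.12, -0.07 and 0.0098). It also lost its call without either of 2 siControl libraries (limma adjusted p = 0.0957 without replicate 1 and 0.0988 without replicate 3) or of 2 siUSP32 libraries (0.102 without replicate 1 and 0.0657 without replicate 3). EHMT1, its dimer partner, was at 14.6 and 13.8 FPKM, SETDB1 at 12.2 and 11.2 and SETDB2 at 1.80 and 1.43, and none of these passed. EHMT1 was called lower without siUSP32 replicate 2 (limma adjusted p = 0.0339) and SETDB2 without siUSP32 replicate 3 (0.0212). SETDB2 can share reads with the readthrough gene, so its level is uncertain.

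The H3K27 methyltransferases EZH2 and EZH1 are the catalytic subunits of the Polycomb complex PRC2. EZH2 was at 19.66, 22.83 and 22.79 FPKM in siControl and 18.60, 18.25 and 21.52 in siUSP32, with overlapping groups (log2 difference -0.15 ± 0.08 SE, limma adjusted p = 0.118). Without siControl replicate 1 or siUSP32 replicate 3 it was called lower (limma adjusted p = 0.0467 and 0.0247). EZH1 was at 5.42 ± 0.227 and 4.79 ± 0.353 FPKM (limma adjusted p = 0.0837). With TPM both were called lower. DOT1L, the only known H3K79 methyltransferase, rose. It was at 2.78, 2.75 and 2.39 FPKM in siControl and 3.61, 3.93 and 3.68 in siUSP32, a 1.42-fold rise (log2 difference 0.38 ± 0.07 SE, limma adjusted p = 0.00119), which was 0.85 with the length correction and 0.11 with TPM. Of the H4K20 enzymes, the monomethyltransferase gene KMT5A fell from 35.3 ± 0.825 to 30.7 ± 0.570 FPKM and the dimethyltransferase gene KMT5B from 27.3 ± 0.400 to 19.9 ± 0.817 FPKM, while KMT5C, at 5.93 and 5.80 FPKM, missed the threshold. KMT5A has processed copies in the genome that can share its reads. Its fall lost its call with median-ratio scaling (log2 difference -0.12), and that of KMT5B with the length correction (-0.05).

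The SETD genes whose known substrates are mainly not histones rose or did not pass. SETD3, the histidine methyltransferase of actin, was at 47.61, 49.23 and 48.51 FPKM in siControl and 68.99, 65.56 and 69.43 in siUSP32, a 1.40-fold rise (log2 difference 0.48 ± 0.05 SE, limma adjusted p = 1.72e-05). SETD4 was at 8.13, 7.15 and 7.33 FPKM in siControl and 11.32, 13.33 and 11.33 in siUSP32, a 1.59-fold rise (log2 difference 0.60 ± 0.08 SE, limma adjusted p = 1.22e-04). With TPM the difference was 0.27 for SETD4, which kept its call, and 0.12 for SETD3, which did not. SETD6, a methyltransferase of the NF-kB subunit RelA, went from 5.72 ± 0.791 to 7.90 ± 1.24 FPKM with overlapping groups. It was not called with TPM (0.08) or the length correction (0.24), and its call was lost without siControl replicate 3 (limma adjusted p = 0.0527) or siUSP32 replicate 1 (0.0547). SETD9 was at 4.52 ± 0.905 and 5.04 ± 0.207 FPKM (limma adjusted p = 0.275). Without siControl replicate 3 it was called higher (limma adjusted p = 0.0476).

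Among the erasers, the LSD1 gene KDM1A was the most abundant member in both groups. This H3K4 demethylase of corepressor complexes was at 162, 158 and 160 FPKM in siControl and 136, 125 and 146 in siUSP32, a 1.18-fold fall without overlap (limma adjusted p = 0.00573). KDM1B, its paralog, was at 7.61 ± 0.144 FPKM in siControl and 5.54 ± 0.808 in siUSP32. Its log2 difference of -0.40 stayed at -0.38 when corrected for length, while quantile normalization gave -0.10 and no call. The H3K4 demethylase gene KDM5B, which is often high in breast cancer, had the largest fall among erasers. It was at 23.57, 22.77 and 24.53 FPKM in siControl and 13.81, 11.67 and 15.35 in siUSP32, a 1.74-fold fall (log2 difference -0.76 ± 0.09 SE, limma adjusted p = 5.37e-05, length-corrected -0.21). KDM5C went from 25.0 ± 0.746 to 19.4 ± 1.77 FPKM (length-corrected log2 difference 0.05, not past the threshold). KDM5A went from 2.55 ± 0.0751 to 1.95 ± 0.273 FPKM, was called higher after correction for length (0.29), and was no longer called lower without siControl replicate 3 (limma adjusted p = 0.0531).

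The H3K9 demethylase genes KDM3A and KDM3B fell alike. KDM3A, a target of hypoxia signalling, went from 18.0 ± 0.487 to 10.9 ± 1.18 FPKM and KDM3B from 16.1 ± 0.153 to 9.79 ± 0.964 FPKM, with log2 differences of -0.68 and -0.67 (limma adjusted p = 4.09e-05 and 3.32e-05). Of the KDM4 genes, a family that acts on H3K9 and in some members on H3K36, KDM4B fell and KDM4D rose. KDM4B went from 4.84 ± 0.206 to 3.63 ± 0.246 FPKM. The KDM4B difference turned to 0.048 by quantile normalization and 0.034 when corrected for length, with no call in either. KDM4D, at 1.37, 1.43 and 1.07 FPKM in siControl and 2.03, 1.78 and 1.97 in siUSP32, was 1.49-fold higher (log2 difference 0.36 ± 0.08 SE, limma adjusted p = 0.00392), with 0.14 and no call by TPM. KDM4A (10.7 and 9.34 FPKM) and KDM4C (3.61 and 3.27) did not pass, but each was called lower without siUSP32 replicate 3 (limma adjusted p = 0.0338 and 0.0389). KDM2A, KDM2B, KDM7A and KDM8 did not pass either, at 15.05, 7.30, 2.95 and 1.95 FPKM in siControl and 13.7, 7.38, 2.47 and 2.12 in siUSP32. KDM7A was called lower without siUSP32 replicate 3 (limma adjusted p = 0.0125). The H3K27 demethylase gene KDM6A, which works inside the KMT2C and KMT2D complexes, fell from 5.61 ± 0.356 to 3.66 ± 0.597 FPKM, a log2 difference of -0.51 that was -0.14 after quantile normalization and -0.15 corrected for length, with no call in either. KDM6B went from 4.76 ± 0.224 to 3.99 ± 0.409 FPKM and was near the threshold (limma adjusted p = 0.0379). It was not called under median-ratio, quantile or length scaling (log2 differences -0.15, 0.17 and 0.23). Its call was lost without siControl replicate 1, 2 or 3 (limma adjusted p = 0.0532, 0.124 and 0.0987) and without siUSP32 replicate 3 (0.108).

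A ratio between related genes within a library is unaffected by any single factor applied to that library. For 18 pairs fixed by family, the log2 ratio of FPKM, with nothing added, was compared between the groups. Its length-corrected form was taken on log2(FPKM + 1), so the 2 forms differ by more than the correction. The uncorrected ratio did not overlap in 12 pairs. The exact 2-sided permutation p was 0.1 for these 12, the smallest that 3 against 3 libraries allow. It was 0.15 after Benjamini-Hochberg adjustment over the 18 pairs, so none passed a threshold of 0.05. No such count was made over other gene pairs, so 12 of 18 has no background of its kind. Groups did not overlap for 77.8% of all single genes tested. SETD1A to SETD1B showed the largest shift. The ratio was 1.35, 1.35 and 1.36 in siControl and 2.31, 2.77 and 2.09 in siUSP32, a change of 0.81 on the log2 scale (0.57 with the length correction). NSD1 to NSD2 went the other way, from 1.20, 1.25 and 1.12 to 0.719, 0.663 and 0.805 (log2 change -0.71). NSD1 was thus the more abundant of the pair in each siControl library and the less abundant in each siUSP32 library.

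Several other pairs shifted by smaller amounts. SUV39H1 to SUV39H2 went from a mean ratio of 1.88 to 1.32 (log2 change -0.50, -0.49 with the length correction), and KDM5A to KDM5B from 0.108 to 0.143 (0.41, 0.50 with the correction). KMT2A to KMT2B went from 0.231 to 0.157 (log2 change -0.57). Its length-corrected change, taken on log2(FPKM + 1), was -0.13 with overlapping groups. The parts of the added 1 and of length in this were not separated. EZH1 to EZH2 (0.250 and 0.247), KDM3A to KDM3B (1.12 and 1.11) and KDM4A to KDM4C (2.98 and 2.87) overlapped between the groups in deposited FPKM. The EZH1 to EZH2 ratio did not overlap with the correction, where it changed by 0.31. Of the 12 pairs without overlap, 9 kept their direction and lack of overlap in the length-corrected form on log2(FPKM + 1). In that form 2, KDM2A to KDM2B and SETDB1 to SETDB2, changed sign.

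**Figure D4:**
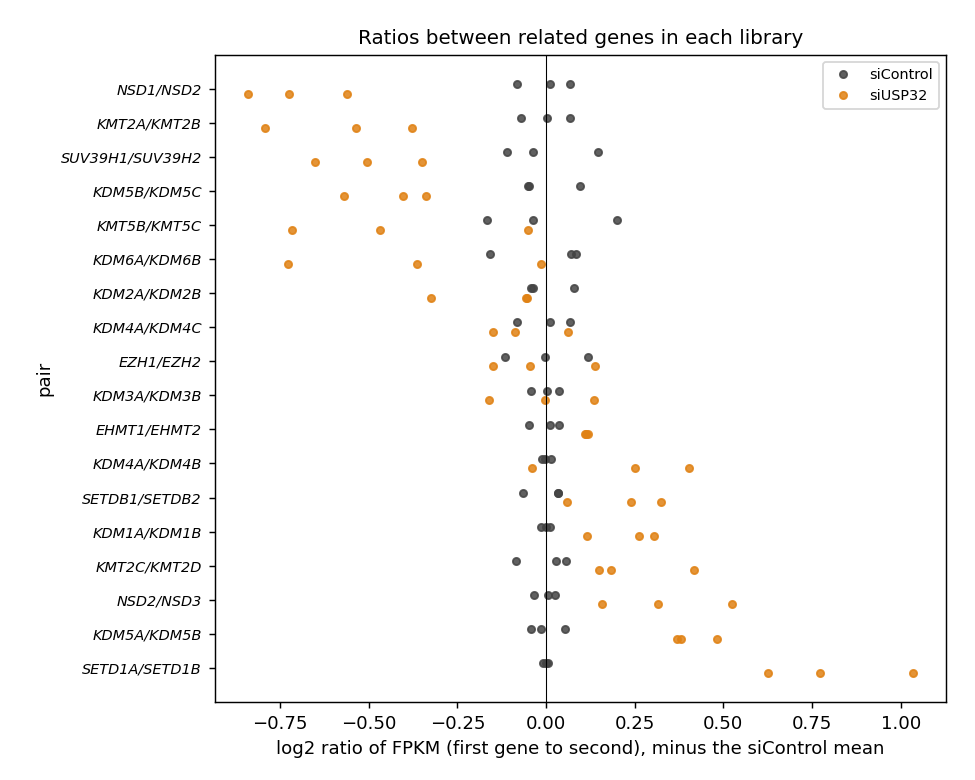
Log2 ratio of the FPKM of 2 related genes in each library (x axis, set to 0 at the siControl mean) for 18 pairs. The 3 siUSP32 libraries lie beyond all siControl libraries in 12 pairs, from NSD1/NSD2 at the top (-0.71) to SETD1A/SETD1B at the bottom (0.81).

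The members' transcripts are long. Their median transcript length was 5837 bases against 3050 over all tested genes with a length, their median coding length 3873 against 1350 bases, and their median exon number 22 against 9 (GENCODE 29, principal transcript). Among all genes, differences declined with length. Among the 2392 genes with the longest transcripts, 5264 bases or more, the median log2 difference was -0.46. Of these genes 72.2% were called lower and 8.86% higher. The 26 members of that range had a median of -0.49, with 21 lower, 2 higher (SETD7 and DOT1L) and 3 not past the test. Among genes of 3652 to 5263 bases the median was -0.25, and the 9 members there had -0.12, with 2 lower and 1 higher. In the range of 2579 to 3650 bases the medians were -0.06 for all genes and -0.04 for the 8 members. In the longest range the members' share called lower was thus set beside a high background, and the part of length in their falls was not tested.

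Across the 47 members, Spearman's rho of the difference with transcript length was -0.66, and with coding length -0.81, against -0.52 and -0.41 over all tested genes with a length. These correlations are over genes that share the same 6 libraries, and FPKM itself divides by a length. With the siControl level rho was -0.07 over the members. SETD7 stands out in this respect, with a transcript of 7365 bases and a coding length of 1101, while DOT1L, at 7436 and 4614 bases, rose with both lengths large. The members with the longest coding sequences, KMT2D (16614 bases), KMT2C (14736) and KMT2A (11910), did not have the largest differences in log2(FPKM + 1), which were those of ASH1L (8895) and KMT2E (5577). By ratio of mean FPKM, however, KMT2A (2.77) and KMT2D (2.72) were close to ASH1L (2.75).

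**Figure D5:**
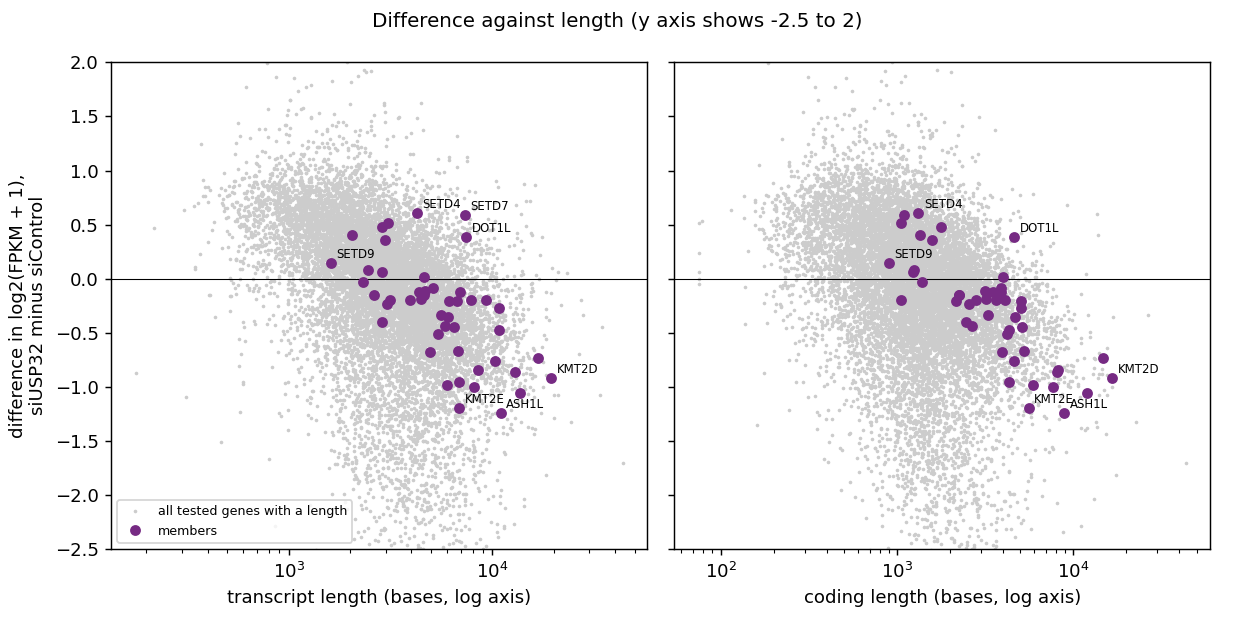
Difference in log2(FPKM + 1), siUSP32 minus siControl (y axis), against transcript length (left) and coding length (right), both in bases on log axes, for all tested genes with a length (grey) and the 47 members (purple). The y axis leaves out 131 grey genes. Members with long coding sequences lie lowest, and SETD7 and DOT1L lie near the upper edge of transcripts of their length.

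The positions below are those of the principal transcripts on GRCh38 (GENCODE 29). ASH1L lies on chromosome 1 from 155336055 to 155562532 (minus strand, 28 exons), KMT2E on chromosome 7 from 105014179 to 105114085 (plus, 27 exons) and KMT2A on chromosome 11 from 118436490 to 118523917 (plus, 36 exons). SETD2 lies on chromosome 3 from 47016689 to 47163967 (minus, 21 exons) and SETD5 on the same chromosome from 9397719 to 9478154 (plus, 23 exons). SETD1B and KMT2D are both on chromosome 12, from 121804180 to 121830239 (plus) and from 49018975 to 49055324 (minus). Of the genes that rose, SETD4 lies on chromosome 21 from 36034541 to 36060261 (minus, 10 exons), SUV39H2 on chromosome 10 from 14878900 to 14904315 (plus, 5 exons) and SETD7 on chromosome 4 from 139506036 to 139556774 (minus, 8 exons). The largest falls were thus spread over several chromosomes.

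Promoters of genes that moved together are shown because the study concerns YAP, which acts at DNA through TEAD factors. The 100 bases before the RefSeq gene start (GRCh38.p14) are given for 3 members that fell and 2 that rose, 5′ to 3′ on the gene's strand, with GC boxes (GGGCGG on either strand) in capitals. They span chr1:155562804-155562903 (minus) for ASH1L, chr3:47164114-47164213 (minus) for SETD2, chr12:49060795-49060894 (minus) for KMT2D, chr21:36060527-36060626 (minus) for SETD4 and chr10:14878766-14878865 (plus) for SUV39H2. The RefSeq start can differ from that of the principal transcript, which for KMT2D lies at 49055324, well downstream of the stretch shown.
ASH1L: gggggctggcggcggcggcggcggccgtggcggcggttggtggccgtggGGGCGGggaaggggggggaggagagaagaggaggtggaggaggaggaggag
SETD2: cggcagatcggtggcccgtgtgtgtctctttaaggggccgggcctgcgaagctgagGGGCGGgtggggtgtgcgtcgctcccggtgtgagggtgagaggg
KMT2D: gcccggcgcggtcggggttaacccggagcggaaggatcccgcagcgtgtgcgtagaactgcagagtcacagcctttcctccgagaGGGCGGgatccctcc
SETD4: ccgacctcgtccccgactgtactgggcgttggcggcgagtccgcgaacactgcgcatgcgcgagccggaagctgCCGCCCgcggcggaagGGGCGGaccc
SUV39H2: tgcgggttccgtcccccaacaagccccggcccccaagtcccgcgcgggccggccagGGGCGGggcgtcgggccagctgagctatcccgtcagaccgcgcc

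All 5 stretches are rich in G and C, at 68% to 79%, and hold 9 to 17 CpG dinucleotides. Other members differed: the same 100 bases held no GC box in KMT2E, which fell, or in SETD7, which rose. SETD7 had 64% G and C and 4 CpG there. Its stretch (chr4:139556220-139556319, minus) lies inside the principal transcript, which starts at 139556774. Over 250 bases the median G and C content was 67.0% for the members and 65.2% for all tested genes with an entry. In the 250 bases before the start, a GC box was found on either strand in 34 of the 44 members with a promoter entry (77.3%), against 68.8% of 9734 tested genes with one. Among members with an entry, it was present in 23 of the 24 that fell and in 5 of the 6 that rose. Their median G and C content was 69.4% for those that fell and 66.2% for those that rose. The part of base content in these counts was not tested. The TEAD motif GGAATG was found in 3 of the 44 (6.82%), against 9.29% of the 9734 promoters. Those were ASH1L, which fell, at 165 bases before the start, EHMT2 at 166, and SUV39H1, which did not pass the test, at 113. The ATF4 response element TTGCATCA and the TATA box TATAAA were found in none of the 44, against 0.411% and 5.34% of the promoters. A match is a description of letters in this window and not a bound site.

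Genes that work with the members were counted from 9 lists written by function, and the share of all genes tested, 41.3% lower and 33.3% higher as deposited and 62.1% and 14.3% with TPM, is the background for each count. Of 15 partners of the MLL and SET1 complexes 6 fell, 4 rose and 5 did not pass (median -0.05), shares near that background. With TPM 9 were lower and 2 higher, and after quantile normalization 3 were lower and 7 higher. WDR82, the SET1 subunit that binds RNA polymerase II, fell 2.44-fold from 37.4 to 15.4 FPKM, and NCOA6 of the KMT2C and KMT2D complexes fell 2.06-fold from 11.3 to 5.47. CXXC1, the CpG-binding subunit of SET1, rose from 31.0 to 43.6 FPKM (log2 difference 0.12 and no call with TPM), and BOD1, a regulator of mitotic phosphatase, from 36.8 to 80.3. Of 12 PRC2 partners 6 fell, 4 rose and 2 did not pass (median -0.12). With TPM the counts were 8 lower and 1 higher (median -0.47), and with the length correction 3 lower and 5 higher (median 0.09). The core subunit gene SUZ12 fell 1.82-fold from 19.3 to 10.6 FPKM and the accessory gene LCOR 1.96-fold from 2.89 to 1.47, the latter with a call lost by the length correction (log2 difference -0.05). PHF19, an accessory subunit that binds H3K36me3, rose 1.89-fold from 57.9 to 110 FPKM, and RBBP7 from 115 to 141, a rise that was -0.07 with TPM.

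Of 13 H3K9 partners and readers 5 fell, 4 rose and 4 did not pass (median -0.02), again near the share of all genes. With TPM 10 were lower and 0 higher (median -0.39). UHRF1, which links H3K9 methylation to DNA methylation, fell 1.81-fold from 12.98 to 7.17 FPKM, and ATF7IP, the SETDB1 stabiliser, 1.76-fold from 6.72 to 3.81. TRIM28, which recruits SETDB1, went from 79.8 to 96.9 FPKM and the reader CDYL from 10.01 to 12.5, and both were lower with TPM without passing (log2 differences -0.09 and -0.05). Of 13 tested partners of LSD1 and KDM5 in corepressor complexes 8 fell, 3 rose and 2 did not pass (median -0.36). After quantile normalization 5 were lower and 4 higher (median -0.06). RCOR1, the CoREST scaffold of KDM1A, fell 2.07-fold from 27.7 to 13.4 FPKM and GSE1 2.10-fold from 6.72 to 3.19, while HDAC1 rose from 76.6 to 119 and HMG20B from 36.6 to 63.1. KDM1A and its scaffold gene were thus both lower, and HDAC1, a deacetylase gene of the same complex, was higher, in all 5 scalings. HDAC2 is on the same list but was not among the genes named. Both HDAC1 and HDAC2 are also counted among the histone deacetylases below.

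Other chromatin enzymes also went both ways. Of 14 tested histone methyltransferases outside the symbol rule 7 rose, 4 fell and 3 did not pass (median 0.15). This balance turned with TPM, to 4 higher and 7 lower (median -0.21), and only 2 were lower without siControl replicate 1 or without siControl replicate 3. PRMT1, the main arginine methyltransferase, rose 2.35-fold from 137 to 320 FPKM and SMYD5 1.71-fold from 15.5 to 26.4, while PRDM2 (5.42 to 3.33) and PRMT9 (8.13 to 5.14) fell, the former with a log2 difference of -0.08 after the length correction. Of 13 further JmjC proteins 6 rose, 5 fell and 2 did not pass (median 0.20). With TPM 3 were higher and 6 lower (median -0.10), and with the length correction 5 higher and 2 lower. PHF2, an H3K9 demethylase, fell 2.51-fold from 7.78 to 3.09 FPKM and HIF1AN, the asparagine hydroxylase of HIF, from 9.95 to 6.34 (log2 difference 0.01 with the length correction), while JMJD4 and JMJD6 rose 1.86-fold and 1.57-fold.

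Of 12 histone acetyltransferases 7 fell, 3 rose and 2 did not pass (median -0.45). With TPM 9 were lower and 0 higher, and among the 7 with a mean of at least 5 FPKM 2 were lower and 3 higher (median 0.13). The coactivator genes EP300 and CREBBP fell 3.50-fold, from 6.49 to 1.86 FPKM, and 2.58-fold, from 3.88 to 1.5. KAT5 rose from 19.8 to 26.8 FPKM and KAT8 from 20.6 to 26.0, rises that were 0.06 and -0.04 with TPM, neither past the threshold. Of 16 histone deacetylases 9 rose, 3 fell and 4 did not pass (median 0.25). This balance turned with TPM, to 3 higher and 6 lower (median -0.11). HDAC4 fell 2.51-fold from 3.35 to 1.34 FPKM and SIRT1 1.45-fold from 10.1 to 6.99, while HDAC9 rose from 0.727 to 1.76 and passed the filter on low values only through its siUSP32 level. Of 14 tested genes that supply the methyl donor or set the level of 2-oxoglutarate 5 fell, 3 rose and 6 did not pass (median -0.11). With TPM 9 were lower and 1 higher, and with the length correction 2 were lower and 5 higher (median 0.09). AHCY, which clears the inhibitory product S-adenosylhomocysteine, rose 1.45-fold from 136 to 198 FPKM and MAT2B 1.34-fold from 84.2 to 113, a rise that TPM reduced to 0.05 on the log2 scale with no call. IDH1 fell from 131 to 87.4 FPKM and MTR, the methionine synthase gene, from 4.99 to 2.92, the latter with a log2 difference of -0.06 after the length correction.

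The summed FPKM of the 50 members was 680, 672 and 680 in siControl and 582, 548 and 607 in siUSP32, without overlap. The members made up between 0.0979% and 0.0991% of all listed FPKM in the siControl libraries and between 0.0578% and 0.0709% in the siUSP32 libraries, lowest in siUSP32 replicate 2. That library had also the highest sum over all genes. Without it, 27 members were called lower and 7 higher, against 26 and 7 with all libraries. Over all 12003 genes tested, 5015 were lower and 4276 higher without it, against 4956 and 4001 with all libraries. Fewer transcripts per cell and a lower share among all transcripts cannot be told apart in these libraries, for which only FPKM is known.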

How the data were processed

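RNA of MDA-MB-231 cells gave 6 libraries (3 siControl, 3 siUSP32), prepared from Trizol lysates for MGI sequencing, per the labels' protocols. The deposited values are FPKM with 2 decimals for 17646 genes, per the file headers. Per the submitters' processing notes, GRCh38.p13 was the build. The aligner, counter, annotation and treatment of strand and of multiply matching reads were not given in the sources used here. No reads were given, so depth is unknown. Among genes under 1 kb the most frequent ratio of low values to those of siControl replicate 1 was 0.983 to 1.05. By itself this ratio gives neither the depth nor the FPKM value of 1 fragment.

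Values were analysed as log2(FPKM + 1) for genes with a mean of at least 1, which understates changes of low genes, with limma 3.58.1 (R 4.3.3, mean-variance trend, 2-sided, Benjamini-Hochberg, threshold 0.05). The fit was also run on simulated data with few changed genes, independent noise and no shift with length or scaling. That setting differs from these data, so it cannot give the error rates here. Folds are ratios of mean FPKM. The length correction subtracts a robust loess curve (span 0.5) of each library's deviation on transcript length, for the 99.6% of tested genes with a GENCODE 29 transcript matched by Entrez identifier. Members, lists, pairs and scalings were chosen with earlier results of these data known. Members named in full were the 8 largest falls and up to 8 rises among called members without overlap (6 qualified). Members of pairs without overlap were also to be given in full, but most are given by means and ratios. Named partner genes had the 2 smallest adjusted p in each direction of a list. Same-numbered libraries did not deviate together, so the replicate block is an alternative. RefSeq promoter entries (GRCh38.p14) matched 44 of 47 members by symbol.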

Additional observations from a re-analysis of the deposited data

How the results depend on the processing

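Genes called over the whole table numbered 4001 higher and 4956 lower of 12003 tested, against 1716 and 7453 with TPM. At a minimum mean FPKM of 5, 3068 of only 8645 tested genes were lower, so the smaller count rests on fewer genes. Members called higher numbered 7, against 1 by TPM, 14 by quantile normalization and 15 after correction for length. Members called lower numbered 26 of 47 tested, against 17 by quantile normalization and 15 after correction for length. At a minimum of 5 FPKM 17 of 31 tested members were lower, a smaller count from fewer members. Leaving out 1 library gave 6 to 7 members higher and 22 to 29 lower. Over all 12003 genes these runs gave 3692 to 4276 higher and 4556 to 5083 lower. Pairs without overlap numbered 12 to 14, a count that leaving out a library cannot lower, so it says nothing of stability. With the replicate block 27 members were lower and 7 higher, beside 4979 lower and 4016 higher over all genes. In that setting 15 pairs had the same sign in each of the 3 numbered pairs. Correlations of same-numbered deviations were -0.08, 0.07 and 0.12, which is no sign of pairing. Of 18 partner list counts (9 lists, each direction), 17 moved by over 1.5 times under at least 1 alternative, 12 of them with TPM, 6 with the length correction, 5 by quantile normalization, 3 at the minimum of 5 FPKM, and 1 each without siControl replicate 1 and without siControl replicate 3. The fall of USP32 kept its call in each alternative run. In all alternatives in which they were tested, 14 members kept both direction and side of the threshold. Members below the minimum of 5 FPKM, KMT2A, KMT2E and SETD1B among them, were not tested at that minimum. Signs turned with the length correction for KDM5A (0.29), KDM5C (0.048), KDM4A (0.075), KDM4C (0.17), KDM2A (0.33), SETDB2 (0.20), KDM4B (0.034), KDM7A (0.33), EHMT1 (0.25), NSD2 (0.29), EHMT2 (0.0098), SETDB1 (0.13), NSD3 (0.088), KDM6B (0.23), EZH1 (0.13), SETD9 (-0.14) and HIF1AN (0.014). They turned after quantile normalization for KDM5A (0.12), KDM4A (0.068), KDM4C (0.28), KDM2A (0.034), EZH1 (0.20), KDM4B (0.048), KDM7A (0.21), KDM6B (0.17), SETDB2 (0.14), SETDB1 (0.096), EHMT1 (0.078) and KMT5C (0.29), and with median-ratio scaling for KMT5C (0.033). With TPM they turned for KDM2B (-0.32), SUV39H1 (-0.29), KDM8 (-0.18), SETD9 (-0.17), RBBP7 (-0.074), TRIM28 (-0.091), CDYL (-0.046) and KAT8 (-0.041). Leaving out 1 library gave -0.14 to 0.094 for KMT5C and -0.042 to 0.065 for KDM2B, neither called. Beyond the scaling itself, the cause was not tested.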
